A study of Mus musculus with 6 samples.

Results

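Genes of protein folding, membrane translocation, quality control and vesicle export in the endoplasmic reticulum (ER) were followed in MC3T3-E1, a pre-osteoblast line from mouse calvaria. The members were 54 genes chosen by function, and a gene counted as measured where at least 1 probe set named it and no other gene. By that rule 51 of the 54 were measured, on 55 probe sets, among 19938 genes in all. The other 3, Fkbp10, Sec61g and Kdelr2, were not analysed here. Ero1a and Ero1b are the present symbols of the members listed as Ero1l and Ero1lb.

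The data were 6 expression arrays of total RNA from that 1 line, whose source was a newborn C57BL/6 mouse. Differentiated cells (3 arrays) had been taken at confluence through 14 days of osteoblast induction in DMEM with 10% serum, 0.1 µM dexamethasone, 10 mM β-glycerophosphate, 0.2 mM ascorbic acid-2-phosphate and 1 mM sodium pyruvate. Undifferentiated cells (3 arrays) were kept in α-MEM lacking ascorbic acid, also with 10% serum, and received none of the inducers. Medium, time and compounds differ together between the groups and cannot be told apart. The replicates are described as independent, but not whether they were separate cultures, so p-values measure the spread between these samples, which may be technical.

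Secretory and membrane proteins enter the ER through the Sec61 channel. There they are folded by HSP70 and HSP90 chaperones, lectin chaperones and disulphide isomerases, and those that fail to fold are returned to the cytosol for degradation. Folded cargo leaves in COPII-coated vesicles, and KDEL receptors bring escaped chaperones back. When folding lags, the sensors IRE1, ATF6 and PERK raise the production of this machinery in the unfolded protein response. Osteoblasts load the pathway heavily because they secrete type I procollagen, a cargo too long for a usual COPII vesicle.

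Values are log2 expression as deposited, from which the median of the 6 arrays had been taken for every probe set. A value of 0 is thus the middle of the 6 arrays, only differences between arrays can be read, and whether a gene was above background is unknown. Where the groups do not overlap, the lowest array of one group and the highest of the other are mirror images around 0 by construction. Genes were tested with limma over all 19938 genes with Benjamini-Hochberg adjustment, and "rose" or "fell" below means an adjusted p under 0.05. Differences are differentiated minus undifferentiated on the log2 scale, with limma's moderated standard error (SE) and 3 arrays per group.

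Most of the members fell, by small amounts. Of the 51 members, 29 fell, 7 rose and 15 did not pass. Over all genes tested, 35.5% passed in either direction, 19.1% fell and 16.4% rose, against 70.6% of members changed, 56.9% lower and 13.7% higher. The median difference was -0.22 over the members and 0.02 over all genes. The arrays of the groups did not overlap for 39 members (76.5%), against 46.2% of all genes. A change of at least 2-fold was seen in 2 of the 51 members, Ern1 and Ero1a, against 4.81% of all genes. The median size of a difference was 0.32 over the members and 0.13 over all genes. In whole-culture RNA, fewer cells making a transcript and less transcript per cell cannot be told apart.

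**Figure D1:**
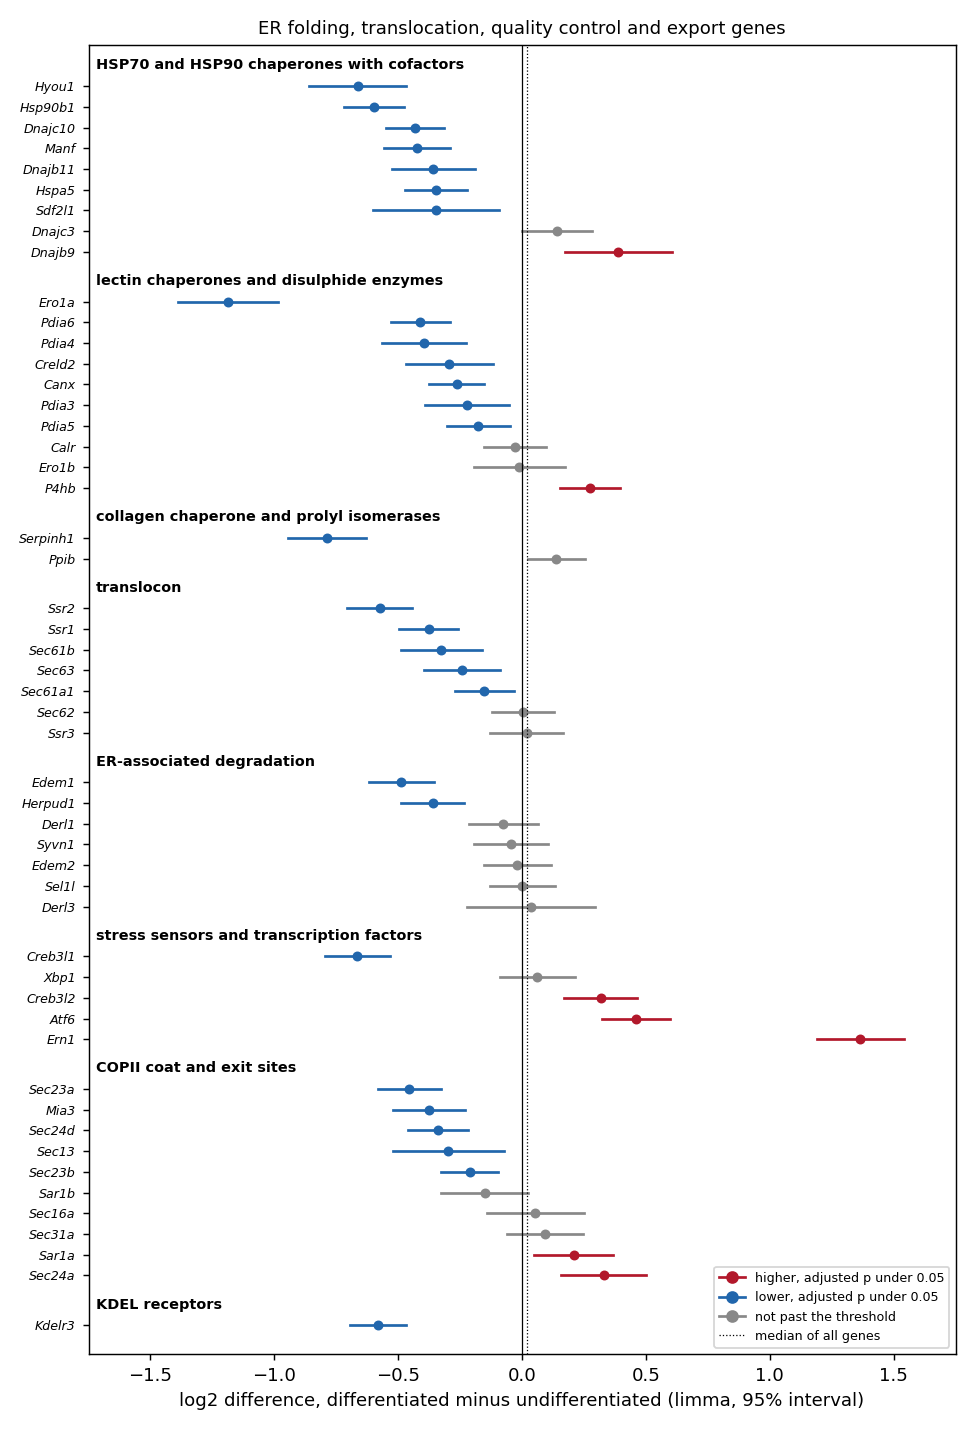
Difference in log2 expression, differentiated minus undifferentiated, for the 51 measured members, grouped by role and sorted by size within a role. Points are limma estimates from 3 arrays per group and lines are 95% intervals; the dotted line is the median of all genes, 0.02. Ern1 lies farthest to the right at 1.37 and Ero1a farthest to the left at -1.19.

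Markers of other processes moved at the same time. All 5 measured proliferation markers were lower in differentiated cells, from -2.94 for Mki67 to -1.88 for Top2a, and their part in the falls described here was not tested. The 7 measured osteoblast markers were mixed: 3 rose and 2 fell. Ibsp, the bone sialoprotein, rose by 3.12 ± 0.09 (SE, adjusted p = 4.67e-08), Alpl by 0.96 and Phospho1 by 0.42. Sp7 fell (-0.40 ± 0.07, adjusted p = 0.00257), but did not pass after cyclic loess scaling (adjusted p = 0.150). Sparc did not pass (-0.11, adjusted p = 0.190). Of the main cargo chains, Col1a1 fell (-0.40 ± 0.07, adjusted p = 0.00146), and Col1a2 differed by -0.13 ± 0.06 (adjusted p = 0.141). Runx2, Bglap and Spp1 were not analysed here. Of other cell types, 1 of 6 adipocyte markers (Fabp4, 0.46), 1 of 6 macrophage and osteoclast markers (Cd68, 0.44) and 0 of 5 endothelial markers changed with limma. Of those 5 endothelial markers, 1 had an unadjusted p under 0.05. Levels of these markers cannot be read from centred values.

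Ern1 encodes IRE1α, the kinase and RNase of the ER membrane that splices Xbp1 mRNA. Its values were 0.72, 0.57 and 0.69 in the differentiated arrays, against -0.57, -0.83 and -0.72 in the undifferentiated arrays. All 3 differentiated arrays lay more than 1 log2 unit above all 3 undifferentiated ones. Ern1 was 2.58-fold higher in differentiated cells (1.37 ± 0.08, adjusted p = 1.44e-06), the largest difference of any member in either direction. Its substrate Xbp1 had 0.04, 0.10 and -0.04 in differentiated arrays, against -0.12, 0.07 and -0.05 in undifferentiated arrays. Those groups overlap, and the difference of 0.06 (95% interval -0.09 to 0.21, adjusted p = 0.541) did not pass. A probe set summed over the transcript does not separate spliced from unspliced Xbp1.

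Atf6, the sensor that is cut in the Golgi to release a transcription factor, also rose. Its values were 0.19, 0.35 and 0.21 in differentiated arrays, against -0.19, -0.19 and -0.24 in undifferentiated arrays. The groups were well apart, and the difference was 0.46 ± 0.06 (1.38-fold, adjusted p = 2.86e-04). Outside the members, Eif2ak3, which encodes the third sensor PERK, rose by 0.23 ± 0.05 (adjusted p = 0.00766). So did Mbtps1, the site-1 protease that cuts ATF6, at 0.33 ± 0.07 (adjusted p = 0.00614).

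Of the 5 related ER-membrane factors of the CREB3 family, Creb3l1 fell and Creb3l2 and Creb3 rose. Creb3l1 (OASIS), known in mouse osteoblasts for driving type I collagen transcription, had -0.28, -0.42 and -0.36 in differentiated arrays, against 0.36, 0.28 and 0.30 in undifferentiated arrays. No array of one group came near the other, and Creb3l1 was 1.59-fold lower in differentiated cells (-0.67 ± 0.06, adjusted p = 2.33e-05). Creb3l2 (BBF2H7), known from mouse cartilage as an activator of Sec23a, rose by 0.32 ± 0.07 (adjusted p = 0.00440). Its arrays ran from 0.10 to 0.29 in differentiated cells, against -0.20 to -0.10 in undifferentiated cells. Outside the members, and named after their values were seen, Creb3 rose by 0.32 ± 0.05 (adjusted p = 0.00107), and Creb3l3 (0.07, adjusted p = 0.50) and Creb3l4 (-0.04, adjusted p = 0.692) did not pass. Within each array, Creb3l1 minus Creb3l2 averaged -0.53 ± 0.16 in differentiated and 0.45 ± 0.03 in undifferentiated cells (SD, n = 3 each). The difference of -0.98 between these had an exact two-sided permutation p of 0.1, the smallest that 3 against 3 arrays allow. It was 1 of 5 pairs of related genes compared, and the Benjamini-Hochberg p over the 5 was 0.1 for each. Each gene is centred on its own median, so in none of the pairs does a within-array average say which gene is more abundant. Only the difference between the groups can be read.

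**Figure D2:**
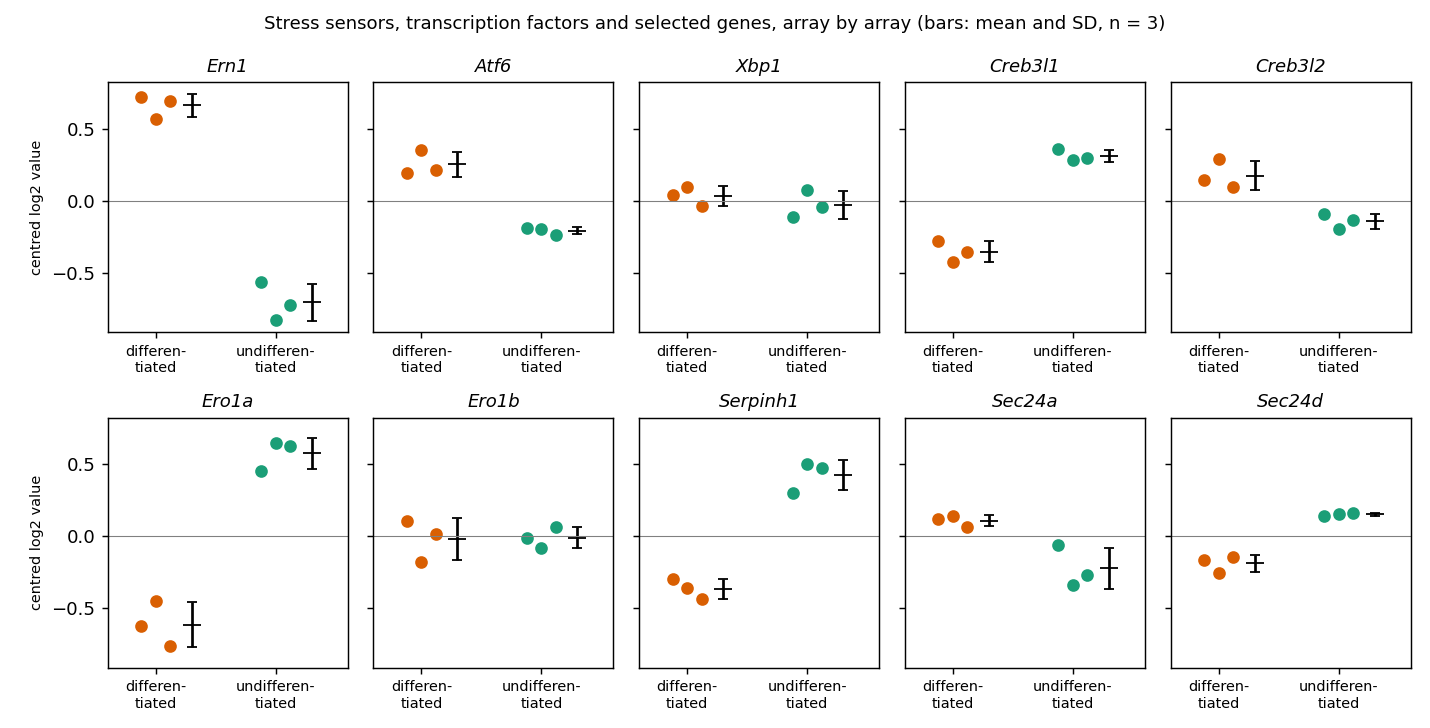
Centred log2 value of 10 genes in every array, with differentiated arrays on the left of each panel and undifferentiated arrays on the right; the black marks are the mean and SD of 3 arrays. Ern1 and Atf6 are higher in every differentiated array, Creb3l1, Ero1a, Serpinh1 and Sec24d lower in every one, and Xbp1 and Ero1b overlap between groups.

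ATF6 and XBP1 act through short promoter elements, and the elements of the members are shown here because many of the members are known targets of these factors. Windows from 250 bases before to 50 after the start site were taken from RefSeq (build GRCm38.p6). They were held for 44 of the 51 measured members, in 46 windows, and searched on both strands. The ER stress response element (ERSE) was searched as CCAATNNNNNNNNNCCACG. It occurred in 10 of those 44 genes (22.7%), against 37 of 27025 genes (0.137%) and 0.119% of all 32851 windows. The members were listed for their role in the ER and include genes known as targets of the stress response, so this share is a description of the list. The 11 matches lay between positions -212 and -26 from the start site and are written in the direction of the motif, with its fixed letters in capitals:
Hspa5, chr2:34772025-34772043, plus strand: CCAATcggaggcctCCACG
Hsp90b1, chr10:86705638-86705656, minus strand: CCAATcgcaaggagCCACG
Hsp90b1, chr10:86705533-86705551, plus strand: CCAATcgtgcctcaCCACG
Pdia6, chr12:17266491-17266509, plus strand: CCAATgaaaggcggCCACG
Canx, chr11:50325800-50325818, minus strand: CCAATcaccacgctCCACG
Creld2, chr15:88819520-88819538, minus strand: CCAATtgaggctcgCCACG
Calr, chr8:84847075-84847093, plus strand: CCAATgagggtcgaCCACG
Syvn1, chr19:6046532-6046550, plus strand: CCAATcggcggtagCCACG
Dnajc3, chr14:118937827-118937845, plus strand: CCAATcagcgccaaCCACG
Derl3, chr10:75893242-75893260, minus strand: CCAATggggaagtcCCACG
Ero1b, chr13:12565682-12565700, minus strand: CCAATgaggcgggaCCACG

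Of these 10 genes, the first 5 listed (Hspa5, Hsp90b1, Pdia6, Canx and Creld2) fell. The other 5 (Calr, Syvn1, Dnajc3, Derl3 and Ero1b) did not pass, and 0 rose by limma's adjusted p (6 of the 10 had an unadjusted p under 0.05, in either direction). Their median difference was -0.15, against -0.22 over all members. The shorter ERSE-II (ATTGG and CCACG with 1 base of any kind between them) occurred in Herpud1 and Dnajb11 (2 of 44 members, against 0.0444% of all genes), and both fell. The UPRE core (TGACGTGG), letters bound by XBP1 and by CREB3-type factors, occurred in Kdelr3, Sec23a and Sec24d (3 of 44, against 0.714% of all genes), and all 3 fell. Of all members 56.9% fell, against 19.1% of all genes, and a link between an element and a fall was not tested. ERSE and ERSE-II end in the same letters, CCACG, which the opposite strand of the UPRE core can also hold. A match of letters is not evidence of binding, and none in a window says only that the letters are absent there.

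The 250 bases before the start sites of 3 genes that fell show where the exact matches lie. Hspa5 has 1 exact ERSE match near its start site, and Hsp90b1 has a pair in opposite directions. Kdelr3 has an exact UPRE core on the opposite strand. Elements that differ from these letters were not searched for, so a gene may hold more of them than are marked. Each is written 5′ to 3′ along its gene, with the fixed letters of the elements in capitals:
Hspa5, chr2:34771840-34772089, plus strand: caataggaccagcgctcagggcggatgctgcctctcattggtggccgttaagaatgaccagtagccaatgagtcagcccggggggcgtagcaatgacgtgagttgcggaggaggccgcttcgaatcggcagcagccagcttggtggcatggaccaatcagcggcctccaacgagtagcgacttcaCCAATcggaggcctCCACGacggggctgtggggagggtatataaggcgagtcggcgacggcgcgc
Hsp90b1, chr10:86705445-86705694, minus strand: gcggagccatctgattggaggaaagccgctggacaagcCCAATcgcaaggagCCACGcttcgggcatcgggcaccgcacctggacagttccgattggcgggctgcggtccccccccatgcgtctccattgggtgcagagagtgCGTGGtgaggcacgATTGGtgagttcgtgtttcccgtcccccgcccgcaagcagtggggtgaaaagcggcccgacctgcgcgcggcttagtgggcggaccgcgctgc
Kdelr3, chr15:79516158-79516407, plus strand: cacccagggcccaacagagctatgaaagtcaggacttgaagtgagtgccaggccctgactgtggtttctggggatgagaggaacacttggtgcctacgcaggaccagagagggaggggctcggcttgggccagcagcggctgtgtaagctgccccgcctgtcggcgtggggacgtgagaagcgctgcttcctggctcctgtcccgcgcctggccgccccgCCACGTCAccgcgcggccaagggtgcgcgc

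Of the HSP70 and HSP90 chaperones of the ER lumen and their cofactors, 7 of 9 fell (77.8%, against 19.1% of all genes). Dnajb9 rose and Dnajc3 did not pass the threshold. Hspa5 (BiP), the lumenal HSP70 that also holds the sensors inactive, had -0.19, -0.15 and -0.13 in differentiated arrays, against 0.18, 0.25 and 0.13 in undifferentiated arrays. The groups were apart, and Hspa5 was 1.27-fold lower (-0.35 ± 0.05, adjusted p = 9.39e-04). Hyou1, the nucleotide exchange factor of BiP, showed the largest fall of the 9. Its values were -0.45, -0.19 and -0.33 in differentiated arrays, against 0.42, 0.42 and 0.19 in undifferentiated arrays (-0.66 ± 0.09, adjusted p = 2.97e-04). Differentiated replicate 2 and undifferentiated replicate 3 were the closest arrays of the groups.

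Hsp90b1 (GRP94), the lumenal HSP90, fell nearly as far. It had -0.31, -0.25 and -0.34 in differentiated arrays, against 0.34, 0.30 and 0.25 in undifferentiated arrays, a 1.51-fold difference (-0.60 ± 0.05, adjusted p = 2.84e-05). Dnajc10 (ERdj5), a J protein that reduces disulphides of proteins bound for degradation, had the tightest undifferentiated arrays of the group, at 0.20, 0.19 and 0.20. In differentiated arrays it was at -0.22, -0.19 and -0.28 (-0.43 ± 0.05, adjusted p = 1.64e-04). The stress-induced secreted factor Manf (-0.43 ± 0.06) and the BiP cochaperone Dnajb11 (-0.36 ± 0.07) fell too.

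Sdf2l1, a stress-induced partner of Dnajb11, was called lower with a difference of -0.35 ± 0.11 (adjusted p = 0.0385), but 1 array set much of its size. It had -0.14, -0.06 and -0.10 in differentiated arrays, against 0.16, 0.54 and 0.06 in undifferentiated arrays. Without undifferentiated replicate 2 the difference was -0.20 (adjusted p = 0.0461), and after cyclic loess scaling it was -0.09 (adjusted p = 0.551). Its call was also lost without any 1 of the differentiated arrays (adjusted p 0.0691 to 0.109).

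The exception in direction was Dnajb9 (ERdj4), a J protein that brings BiP to IRE1 in mammalian cells. It had 0.04, 0.17 and 0.29 in differentiated arrays, against -0.24, -0.04 and -0.37 in undifferentiated arrays. The groups did not overlap but their closest arrays were under 0.1 apart, and the difference was 0.39 ± 0.09 (adjusted p = 0.0106). Dnajc3 (p58IPK), a cochaperone known to restrain PERK, differed by 0.14 ± 0.06 and did not pass (adjusted p = 0.115). Its pair of probe sets gave 0.14 each.

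Disulphide and lectin-dependent folding showed the same majority, with 7 of 10 lower (70.0%, against 19.1% of all genes). P4hb rose, and Calr and Ero1b did not pass the threshold. Ero1a, an oxidase that recharges the disulphide isomerases, had -0.63, -0.45 and -0.76 in differentiated arrays, against 0.45, 0.64 and 0.63 in undifferentiated arrays. It was 2.28-fold lower (-1.19 ± 0.09, adjusted p = 8.81e-06), the largest fall of any member. Its relative Ero1b ran from -0.18 to 0.11 in differentiated arrays, against -0.08 to 0.06 in undifferentiated arrays. Those groups overlap, and the difference was -0.01 (95% interval -0.19 to 0.17, adjusted p = 0.945). Within arrays, Ero1a minus Ero1b averaged -0.59 ± 0.28 in differentiated and 0.59 ± 0.13 in undifferentiated cells (SD, n = 3 each), a difference of -1.18 (exact two-sided permutation p = 0.1, the smallest possible, and 0.1 adjusted over 5 pairs).

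Among the disulphide isomerases, Pdia6 had -0.28, -0.18 and -0.22 in differentiated arrays, against 0.18, 0.18 and 0.20 in undifferentiated arrays (-0.41 ± 0.05, adjusted p = 2.62e-04). Pdia4 (ERp72) had -0.33, -0.25 and -0.09 in differentiated arrays, against 0.18, 0.26 and 0.09 in undifferentiated arrays (-0.40 ± 0.07, adjusted p = 0.00260). Both fell, but the pair of Pdia4 probe sets differed in size, at -0.53 (adjusted p = 8.69e-05) and -0.26 (adjusted p = 0.0818) when tested singly. P4hb (PDI), which is also the shared subunit of the collagen prolyl 4-hydroxylases, went the other way. It had 0.15, 0.09 and 0.16 in differentiated arrays, against -0.19, -0.15 and -0.09 in undifferentiated arrays (0.27 ± 0.05, adjusted p = 0.00336).

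The membrane lectin chaperone Canx fell (-0.26 ± 0.05, adjusted p = 0.00259), while its soluble counterpart Calr differed by -0.03 (95% interval -0.15 to 0.10, adjusted p = 0.763). Creld2, an ER stress-inducible protein with isomerase activity, fell (-0.29 ± 0.08, adjusted p = 0.0157), but not past the threshold without undifferentiated replicate 1, differentiated replicate 2 or differentiated replicate 3 (adjusted p 0.0575 to 0.0606). The smallest falls were those of Pdia3 (ERp57), the isomerase that works with the lectins, and of Pdia5. Pdia3 (-0.22 ± 0.08, adjusted p = 0.0478) lost its call without any 1 array but differentiated replicate 2 (adjusted p 0.0678 to 0.152). The Pdia3 call was also lost after quantile normalization, but kept after cyclic loess at -0.38 (adjusted p = 0.0141). Pdia5 (-0.18 ± 0.06, adjusted p = 0.0361) lost its call without any 1 array but differentiated replicate 3 (adjusted p 0.0517 to 0.115).

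Serpinh1 (HSP47), the chaperone dedicated to procollagen, fell further than any member but Ero1a. It had -0.30, -0.36 and -0.44 in differentiated arrays, against 0.30, 0.50 and 0.47 in undifferentiated arrays. It was 1.73-fold lower, with a difference of -0.79 ± 0.07 (adjusted p = 2.38e-05). Ppib (cyclophilin B), a prolyl isomerase of the collagen modification complex, had 0.07, 0.06 and 0.05 in differentiated arrays, against -0.12, -0.08 and -0.05 in undifferentiated arrays. Its groups did not overlap, but the difference of 0.14 ± 0.05 did not pass (adjusted p = 0.0628).

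**Figure D3:**
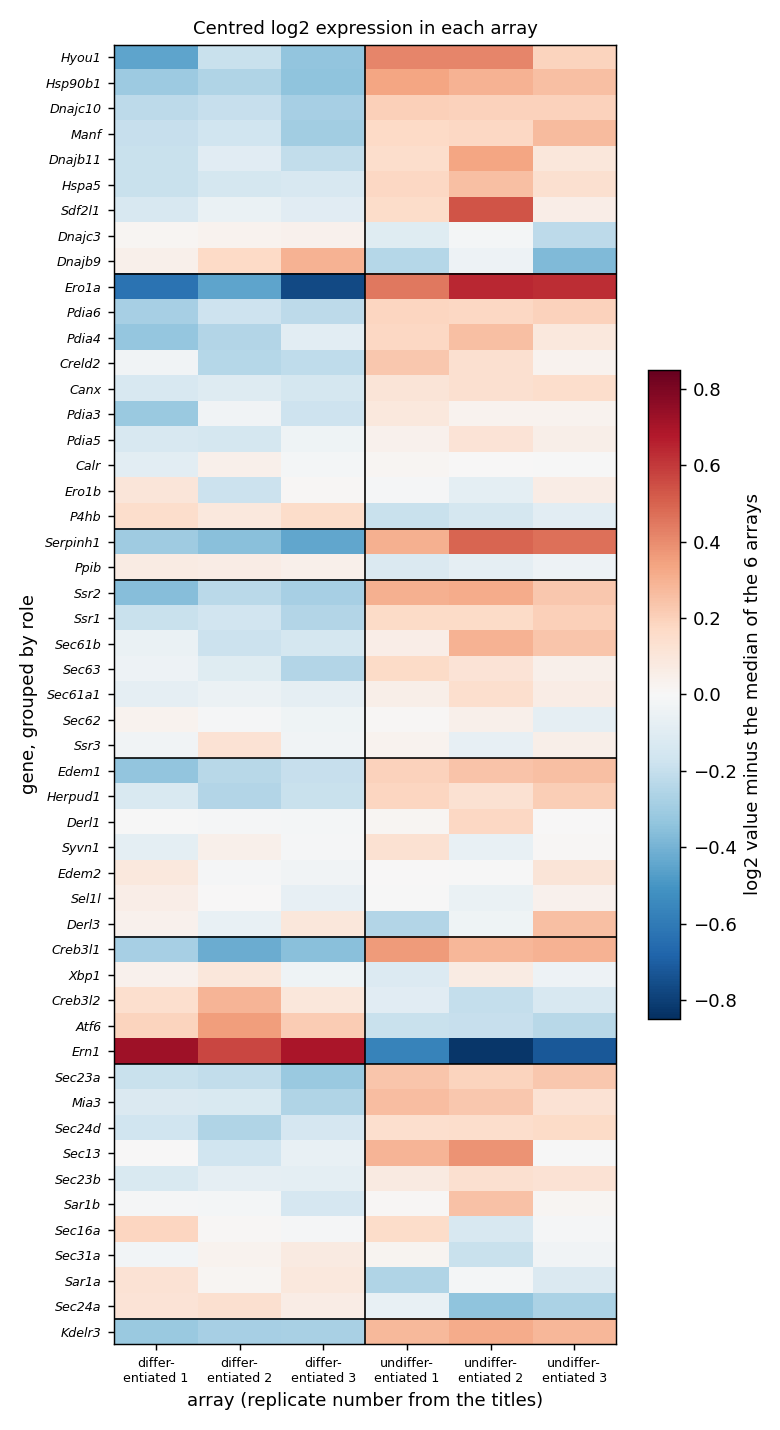
Centred log2 value of the 51 measured members (rows, grouped by role) in each of the 6 arrays (columns, differentiated on the left). Blue is below and red above the middle of the 6 arrays; most rows are blue on the left and red on the right, and Ern1 is the deepest of the rows that run the other way.

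At the translocon 5 of 7 members fell and 0 rose by limma's adjusted p (5 of 7 had an unadjusted p under 0.05, all lower). Those that fell were 71.4% of the role, against 19.1% of all genes. The TRAP subunits, which sit beside Sec61 and help some signal peptides insert, were uneven. Ssr2 had -0.36, -0.23 and -0.28 in differentiated arrays, against 0.30, 0.31 and 0.23 in undifferentiated arrays (-0.57 ± 0.06, adjusted p = 5.28e-05). Ssr1 had -0.19, -0.16 and -0.25 in differentiated arrays, against 0.16, 0.16 and 0.20 in undifferentiated arrays (-0.38 ± 0.05, adjusted p = 4.13e-04). Both groups of arrays were clear of each other for these subunits, whereas Ssr3 overlapped and differed by 0.02 (95% interval -0.13 to 0.17).

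Of the channel itself, the β subunit Sec61b had -0.06, -0.18 and -0.15 in differentiated arrays, against 0.06, 0.29 and 0.23 in undifferentiated arrays (-0.33 ± 0.07, adjusted p = 0.00675). Its 3 probe sets gave -0.35, -0.29 and -0.33. The pore subunit Sec61a1 differed by -0.15 ± 0.05, at the threshold itself (adjusted p = 0.0499), and its call was lost without any 1 array (adjusted p 0.0636 to 0.153). Sec63, the J protein that recruits BiP to the channel, fell by 0.24 on the log2 scale (adjusted p = 0.0210). Its call was lost without undifferentiated replicate 1 or 2 or differentiated replicate 3 (adjusted p 0.0594 to 0.0769). Its partner Sec62 differed by 0.00 (95% interval -0.12 to 0.13).

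Degradation genes were the group with the smallest differences. Of 7 members 2 fell, 0 rose and 5 did not pass by limma's adjusted p (2 had an unadjusted p under 0.05), and the median was -0.04. The share that passed in either direction, 28.6%, was below the 35.5% of all genes. The share that fell, also 28.6%, was above the 19.1% of all genes. Edem1, a lectin that marks misfolded glycoproteins, had -0.34, -0.24 and -0.19 in differentiated arrays, against 0.19, 0.24 and 0.26 in undifferentiated arrays (-0.49 ± 0.06, adjusted p = 1.59e-04). Herpud1, a stress-induced scaffold of the ubiquitin ligase complex, had -0.13, -0.25 and -0.19 in differentiated arrays, against 0.18, 0.13 and 0.21 in undifferentiated arrays (-0.36 ± 0.06, adjusted p = 8.64e-04). Each of these genes had all differentiated arrays below all undifferentiated ones.

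The rest of the degradation members did not pass the threshold. In the core of that complex, the ligase Syvn1 (HRD1) differed by -0.04 (95% interval -0.19 to 0.11) and its adaptor Sel1l by 0.00 (-0.13 to 0.13). Edem2, a relative of Edem1, differed by -0.02 (-0.15 to 0.12). Derl1, a membrane component of the exit channel, had 0.00, -0.01 and -0.02 in differentiated arrays, against 0.01, 0.18 and 0.00 in undifferentiated arrays, where replicate 2 stood above the rest. Derl3 had the widest undifferentiated spread of the 7, from -0.25 to 0.25, and differed by 0.04 (95% interval -0.22 to 0.29).

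COPII and exit site genes were more often lower than higher, with 5 of 10 lower, 2 higher and 3 not past the threshold. Of all genes, 19.1% were lower and 16.4% higher. Sec23a, the inner coat subunit whose loss impairs collagen export and skull bone formation in humans, had -0.19, -0.21 and -0.32 in differentiated arrays, against 0.23, 0.19 and 0.23 in undifferentiated arrays (-0.46 ± 0.06, adjusted p = 1.99e-04). Mia3 (TANGO1), the receptor that loads procollagen into COPII carriers, had -0.12, -0.13 and -0.26 in differentiated arrays, against 0.26, 0.23 and 0.12 in undifferentiated arrays (-0.38 ± 0.06, adjusted p = 0.00141). Sec24d, a cargo-binding subunit also tied to collagen export, had -0.17, -0.25 and -0.14 in differentiated arrays, against 0.14, 0.15 and 0.16 in undifferentiated arrays (-0.34 ± 0.05, adjusted p = 9.33e-04). In each of the 3, no differentiated array reached the undifferentiated range.

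Sec23b, the paralogue of Sec23a, fell by 0.21 on the log2 scale (adjusted p = 0.0102). Within arrays, Sec23a minus Sec23b averaged -0.14 ± 0.09 in differentiated and 0.10 ± 0.05 in undifferentiated cells (SD, n = 3 each), a difference of -0.24. Sec24a rose by 0.33 ± 0.08 (adjusted p = 0.00803), with 0.12, 0.14 and 0.06 in differentiated arrays, against -0.06, -0.34 and -0.27 in undifferentiated arrays. After cyclic loess its difference was 0.18 and did not pass (adjusted p = 0.265). Sec24a minus Sec24d averaged 0.29 ± 0.09 in differentiated and -0.38 ± 0.15 in undifferentiated cells (SD, n = 3 each), a difference of 0.67.

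For the GTPases that start coat assembly, Sar1a was called higher (0.21 ± 0.07, adjusted p = 0.0465) and Sar1b differed by -0.15 (95% interval -0.33 to 0.03, adjusted p = 0.178). Sar1a lost its call without any 1 array but undifferentiated replicate 2 (adjusted p 0.0547 to 0.147). The call was also lost after cyclic loess (adjusted p = 0.0858) and after centring the arrays on their median. Sar1a minus Sar1b averaged 0.13 ± 0.10 in differentiated and -0.22 ± 0.07 in undifferentiated cells (SD, n = 3 each), a difference of 0.36. The Sec23, Sec24 and Sar1 pairs each had an exact two-sided permutation p of 0.1, the smallest possible, and 0.1 adjusted over the 5 pairs.

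The outer coat was less clear. Sec13 was called lower (-0.30 ± 0.10, adjusted p = 0.0439), yet it was the 1 called member whose groups overlapped. It had 0.01, -0.17 and -0.07 in differentiated arrays, against 0.29, 0.38 and -0.01 in undifferentiated arrays. It lost its call without any 1 array but undifferentiated replicate 3 (adjusted p 0.0592 to 0.146), and cyclic loess gave -0.06 (adjusted p = 0.598). Its partner Sec31a differed by 0.09 (95% interval -0.06 to 0.25), and the exit site scaffold Sec16a by 0.05 (-0.14 to 0.25).

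Kdelr3, the measured receptor for retrieval of chaperones with a KDEL tail, had -0.31, -0.28 and -0.27 in differentiated arrays, against 0.27, 0.32 and 0.28 in undifferentiated arrays. Its replicates were among the tightest of the members, with SDs of 0.02 in both groups. It was 1.49-fold lower (-0.58 ± 0.05, adjusted p = 2.07e-05).

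The wider pathway was read from 7 further lists holding 143 genes, of which 139 were measured. In them 47 fell (33.8%) and 30 rose (21.6%), with a median of -0.08. Over all genes 19.1% fell and 16.4% rose, and the shares of each list below are to be read against these. Oligosaccharyltransferase, the complex that attaches N-glycans at the translocon, had 8 of 10 subunits lower (80.0%) and 1 higher (10.0%), with a median of -0.27. Its largest falls were Ostc (-1.10 ± 0.06, adjusted p = 1.63e-06) and Rpn1 (-0.81 ± 0.06, adjusted p = 6.07e-06), and Tusc3 rose by 0.19. The Tusc3 call was lost without undifferentiated replicate 2 or differentiated replicate 1 or 2 (adjusted p 0.0530 to 0.0724). COPI coat and other retrieval genes had 11 of 22 lower and 1 higher (median -0.20), led by the SNARE Bet1 (-0.41 ± 0.08) and the coat subunit Copg1 (-0.34 ± 0.06), with the SNARE Use1 higher (0.51 ± 0.06).

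Signal recognition, translocation and signal peptidase genes had 6 of 17 lower (35.3%) and 3 higher (17.6%), with a median of -0.11. The receptor subunit Srprb (-0.63 ± 0.06) and the signal recognition particle protein Srp72 (-0.59 ± 0.06) fell. Sil1, like Hyou1 an exchange factor of BiP, rose (0.64 ± 0.06, adjusted p = 4.92e-05), as did the signal peptidase subunit Sec11a (0.19, lost without differentiated replicate 3 at an adjusted p of 0.0591). Glucosidases and other folding enzymes had 10 of 26 lower (38.5%) and 6 higher (23.1%), with a median of 0.04. Tmx1, a membrane-bound thioredoxin-like protein, fell (-0.59 ± 0.06), as did the glucosidase II subunit Prkcsh (-0.52 ± 0.06). The ER prolyl isomerases Fkbp7 (0.67 ± 0.06) and Fkbp11 (0.62 ± 0.07) rose. Other COPII, cargo receptor and p24 genes had 8 of 30 lower (26.7%) and 4 higher (13.3%), with a median of -0.08. The shares over all genes were 19.1% and 16.4%. Tmed9 (-0.49 ± 0.06) and Cnih4 (-0.43 ± 0.10) fell, and Ergic3 (0.42 ± 0.06) and Tmed4 (0.39 ± 0.07) rose.

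In a pair of lists more genes rose than fell. Other degradation genes had 9 of 21 higher (42.9%) and 3 lower (14.3%), though their median was -0.01. The lectin Os9, which hands glycoproteins to Sel1l, rose by 0.76 ± 0.06 (adjusted p = 1.58e-05) and Herpud2 by 0.69 ± 0.06 (adjusted p = 2.09e-05). Dnajb14 (-0.27, lost without differentiated replicate 1 at an adjusted p of 0.0585) and Ufd1 (-0.26) fell. Other stress response genes had 6 of 13 higher (46.2%) and 1 lower (7.7%), with a median of 0.07. Crebrf, a regulator of CREB3 turnover, rose by 1.26 ± 0.06 (adjusted p = 5.16e-07), and the PERK-branch target Trib3 was far lower (-2.75 ± 0.13, adjusted p = 4.76e-07). The PERK-branch factors Atf4 (-0.15 ± 0.06, adjusted p = 0.0809) and Ddit3 (0.07 ± 0.06, adjusted p = 0.504) did not pass.

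**Figure D4:**
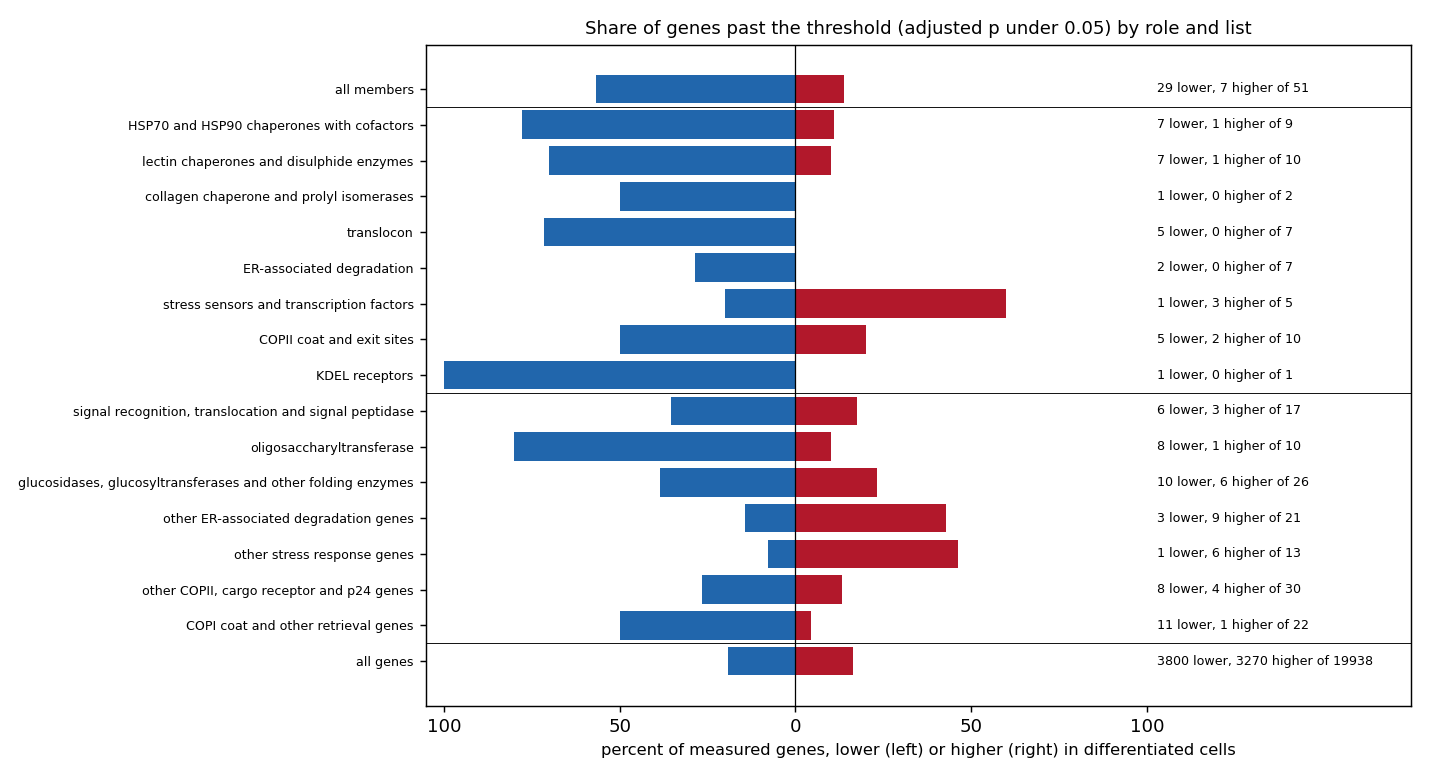
Percent of measured genes that fell (blue, left) or rose (red, right) in differentiated cells at an adjusted p under 0.05, for all members, their 8 roles, 7 further lists of the pathway and all 19938 genes. Chaperones, disulphide enzymes, the translocon, oligosaccharyltransferase and COPI genes lie mostly to the left, and the stress sensors and the further degradation and stress response lists mostly to the right.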

How the data were processed

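Biotin-labelled total RNA of 3 differentiated and 3 undifferentiated samples was read on 1-colour arrays. The deposited values are log2 expression. The submitters' processing notes name RMA and no version of it. Their log base and direction are taken from the method's usual form, and the centring of each probe set on the median of the 6 arrays is seen only in the values (largest row median 5.00e-07). No depth applies, the number of arrays limits precision, and no filter on dim probe sets was possible.

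Of 28856 probe sets, 21789 name 1 gene, 1621 several and 5446 none, by the platform's annotation. Symbols were updated by gene ID through RefSeq (GRCm38.p6, 21698 matched). Probe sets of a gene were averaged, and differentiated minus undifferentiated was fitted over all 19938 genes with limma (lmFit, eBayes, two-sided, no block), with Benjamini-Hochberg adjustment. The fit was tested on simulated data. Pairs of related genes were compared by exact permutation tests over arrays.

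The members, lists and tests were chosen with earlier results of these data known. Array values are given for the 3 largest changes of each role and for Xbp1, Hspa5 and Serpinh1. Those of other members, and Eif2ak3, Creb3, Creb3l3, Creb3l4, Atf4, Ddit3, Col1a2, Phospho1, Sparc and Top2a, were added after values were seen. Of each further list, up to 2 rises and 2 falls are named. Same-numbered arrays deviated from their group means with correlations of -0.00133, 0.0692 and 0.162 across genes, so numbers were not taken to pair samples. Tools were R 4.3.3, limma 3.58.1, pandas 2.3.3, scipy 1.17.1 and matplotlib 3.10.9.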

Additional observations from a re-analysis of the deposited data

How the results depend on the processing

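Alternatives were the replicate block, 3 other scalings, other handling of several probe sets, array weights, robust eBayes, a threshold of 0.01, and each array left out, 16 settings in all. The filter on dim genes was not run because centred values hold no level. Of the 36 calls, 25 (21 lower and 4 higher) stood under every setting that included the gene, and 11 were lost under at least 1. Of these calls 0 changed sign, and none of the 15 other members became called. Pdia4, Sec61b and Dnajc3 have several probe sets, so the setting with 1 probe set per gene only left them out. They were read under 15 settings. Members lower numbered 29, and 23 to 26 with each array left out; members higher numbered 7, and 6 to 7. With the replicate block 32 members changed (26 lower, 6 higher), and Pdia3, Pdia5, Sec61a1 and Sar1a were the calls not made; at the threshold of 0.01 there were 26 (21 lower, 5 higher). Changed genes of the further lists numbered 77, and 56 to 80 over the settings. The median of all genes stayed between 0.01 and 0.03.

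Signs turned only in members that passed under no setting. Sec62 was at -0.0054 after median centring, -0.0060 after cyclic loess and -0.0084 with array weights. Sel1l was at -0.0094 after quantile, -0.0063 after median and -0.0060 after cyclic loess scaling. Derl3 was at -0.0061 after quantile scaling and Ero1b at 0.0058 with array weights. With 1 array left out, values ran from -0.059 to 0.0072 for Calr, -0.074 to 0.070 for Ero1b, -0.031 to 0.027 for Sec62, -0.032 to 0.046 for Ssr3, -0.056 to 0.018 for Edem2, -0.087 to 0.0072 for Syvn1, -0.027 to 0.034 for Sel1l, -0.083 to 0.17 for Derl3 and -0.016 to 0.13 for Sec16a. The cause of the changes under cyclic loess was not tested.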

Other observations

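The members also varied within a group. Their deviations from the group mean had an SD of 0.0644, 0.0657 and 0.0556 log2 units in differentiated replicates 1 to 3, against 0.0752, 0.0840 and 0.0777 in undifferentiated replicates 1 to 3. Over all genes the same SDs were 0.0760, 0.0783 and 0.0745 in differentiated replicates, against 0.0867, 0.0817 and 0.0947 in undifferentiated replicates. Undifferentiated replicate 2 was thus the widest of its group over the members and the narrowest over all genes. The median SD of a member over its 3 arrays was 0.0646 in differentiated and 0.0605 in undifferentiated cells, against 0.0687 and 0.0773 over all genes.

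Exchange factors of BiP gave opposite values, with Hyou1 at -0.66 ± 0.09 and Sil1 at 0.64 ± 0.06 (SE, 3 arrays per group, limma). Opposite values were also seen for the stress-linked scaffold Herpud1 (-0.36 ± 0.06) and its relative Herpud2 (0.69 ± 0.06). These pairs were noticed in the data, and the difference between their responses was not tested.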
